A study of Mus musculus with 22 samples.

Results

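The potassium channel genes are the 92 protein-coding mouse genes whose symbol begins with Kcn, continues with lower-case letters and ends in a number, of 55487 genes counted in every library. All 92 symbols that matched were protein-coding. By symbol prefix they comprised 30 pore-forming voltage-gated subunits, 10 electrically silent modifiers of voltage-gated channels, 8 calcium- or sodium-activated subunits, 15 inward rectifiers, 14 2-pore-domain subunits and 15 auxiliary subunits. RNA came from mouse dorsal root ganglia (DRG), the clusters of sensory neuron cell bodies beside the spinal cord, either whole or as cultured DRG neurons. Ganglia of thoracic and lumbar levels came from mice whose genotype is given as Postn knock out (here KO), treated with imiquimod (IMQ, n = 2) or vehicle (n = 3) over 5 days, and from wild-type (WT) mice treated in the same ways (n = 2 and n = 3). Neurons were cultured for 72 h as KO with recombinant POSTN (rPOSTN) or without it (control), and as WT with rPOSTN or control, with 3 libraries in each of these 4 groups. Postn encodes periostin, a secreted matrix protein, and IMQ is a skin irritant that activates an innate immune receptor. The labels do not state whether replicates were separate animals or cultures, so p-values measure the spread between these libraries, which may be technical. In WT IMQ ganglia and WT cultures, replicates differed in sex-linked transcripts, given below, so there they were not all from the same animal.

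Potassium channels let potassium ions leave the cell, which sets the resting potential, repolarises the action potential and restrains repetitive firing. Voltage-gated channels open on depolarisation, inward rectifiers and 2-pore-domain channels carry background current, and calcium- or sodium-activated channels follow the ions that enter during a spike. Silent modifiers form no channel alone and change the channels they join, while auxiliary subunits alter gating and traffic. In sensory ganglia such channels are known as brakes on the excitability of nociceptors, and satellite glia, the cells that wrap each neuron body, clear potassium through the inward rectifier encoded by Kcnj10.

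The pore-forming members share a selectivity filter, the short stretch of the pore that passes potassium and not sodium. In the longest annotated coding sequence of each of the 92 members (GENCODE M21, GRCm38), the in-frame codon pattern ACN, NTN, GGN, then TAN or TTN, then GGN was found once in 53 members and at 2 places in 11 members, all of them 2-pore-domain subunits, whose single chain carries a pair of pore loops. The other 28 lacked it: 11 carried the same pattern with a first codon of TCN or AGN, among them Kcnh2 and Kcnn1, and 17 carried neither, namely all 15 auxiliary subunits, Kcnk1 and Kcnk7. All 10 silent modifiers held the pattern once, as did 14 of the 15 inward rectifiers. The filter of 3 members on which the results below turn is printed with its flanks, sense strand 5′ to 3′, with the 5 filter codons in capitals. The stretches lie in coding sequence at chr7:24379180-24379230 in exon 4 (Kcnn4, plus strand), chr1:87389003-87389053 in exon 2 (Kcnj13, minus strand) and chr5:24325537-24325587 in exon 7 (Kcnh2, minus strand). Kcnh2 shows the variant with AGC as the first codon and TTT as the fourth.
Kcnn4: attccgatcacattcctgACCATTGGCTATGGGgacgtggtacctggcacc
Kcnj13: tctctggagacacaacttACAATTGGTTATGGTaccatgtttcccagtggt
Kcnh2: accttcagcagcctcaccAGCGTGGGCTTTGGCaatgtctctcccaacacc

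Promoters are shown for 3 members that were higher in culture than in the ganglion and for 4 members far lower in culture, since that contrast held nearly all changes among the members. The 120 bases before the annotated start are given in the gene's direction from RefSeq (GRCm38.p6), with the GC box GGGCGG, searched on both strands, in capitals. They lie at chr7:24370143-24370262 (Kcnn4, plus), chr1:172341090-172341209 (Kcnj10, plus), chr14:20181783-20181902 (Kcnk5, minus), chr1:87394730-87394849 (Kcnj13, minus), chr11:33962893-33963012 (Kcnmb1, plus), chr19:59219528-59219647 (Kcnk18, plus) and chr2:55435850-55435969 (Kcnj3, plus).
Kcnn4: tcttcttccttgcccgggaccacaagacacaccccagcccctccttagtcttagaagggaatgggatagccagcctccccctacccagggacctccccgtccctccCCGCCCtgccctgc
Kcnj10: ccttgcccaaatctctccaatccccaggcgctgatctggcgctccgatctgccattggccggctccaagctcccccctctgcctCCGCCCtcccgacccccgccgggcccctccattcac
Kcnk5: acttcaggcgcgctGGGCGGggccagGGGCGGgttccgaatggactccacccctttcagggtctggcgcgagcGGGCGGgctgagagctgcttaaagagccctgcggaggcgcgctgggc
Kcnj13: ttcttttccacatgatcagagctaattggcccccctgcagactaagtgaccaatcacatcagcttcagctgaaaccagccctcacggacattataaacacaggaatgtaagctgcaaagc
Kcnmb1: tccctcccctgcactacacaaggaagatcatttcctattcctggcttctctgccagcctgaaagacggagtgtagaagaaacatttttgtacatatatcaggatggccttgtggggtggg
Kcnk18: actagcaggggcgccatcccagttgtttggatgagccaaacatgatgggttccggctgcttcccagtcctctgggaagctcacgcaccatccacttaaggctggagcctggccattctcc
Kcnj3: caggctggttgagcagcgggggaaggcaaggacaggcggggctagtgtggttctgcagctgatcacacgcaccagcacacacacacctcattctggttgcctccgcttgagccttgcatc

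Of the 92 members, 67 had a promoter entry. In the 250 bases before the start, 33 of the 67 (49.3%) held a GC box, against 32.9% of all 27025 genes with an entry. It was present in 6 of the 8 entries of members higher in culture in both genotypes and in 17 of the 41 entries of members lower in both. The printed promoters split more sharply than these shares. Kcnk13 and Kcnk16, also higher, held no GC box, while Kcnmb4 and Kcnip2, also far lower, did. The half-site GGACAGC of the neuronal repressor element, searched on both strands, was in 8 members (11.9%), against 5.29% of all genes. It was in 6 of the 41 entries of members lower in both genotypes, Kcne4, Kcnh6, Kcnip3, Kcnj4, Kcnk1 and Kcnk10, and in 0 of the 8 entries of members higher in both. The AP-1 letters TGANTCA were in 3 members (4.48%; all genes 6.87%), the palindromic CRE TGACGTCA in 0 (1.62%) and the palindromic E-box CACGTG in 4 (5.97%; 6.05%). No motif searched is contained in another, and a match describes letters in a window, not a binding site.

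Total counts per library ran between 16666489 and 24118303, and levels are given as CPM, counts scaled to a common library total, on library sizes normalised together by the trimmed mean of M-values (TMM). Postn averaged 190 ± 158 CPM in KO control cultures and 822 ± 129 CPM in WT control cultures, and 4.4 ± 0.874 CPM in KO vehicle ganglia and 24.5 ± 3.2 CPM in WT vehicle ganglia (SD, n = 3 each). In the ganglia, 1 WT IMQ library (replicate 2) carried Y-linked transcripts at 149 CPM with Xist at 0.188 CPM, and the other 9 had Xist at 210 to 252 CPM. KO cultures held both kinds of transcript, whereas WT cultures 1 and 2 held the Y-linked kind and WT culture 3 had Xist at 1157 to 1179 CPM. KO vehicle ganglion 1 had 497 CPM of erythroid transcripts, against 21.6 to 149 CPM in the other ganglion libraries. Each culture genotype was deposited in its own table, as were the ganglia, so genotype in culture, and culture against ganglion, cannot be told apart from the table.

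The ganglion expressed most of the family. A mean of at least 1 CPM was reached by 76 members in KO IMQ ganglia, 75 in KO vehicle ganglia, 77 in WT IMQ ganglia and 76 in WT vehicle ganglia. In cultures the numbers were 59 with rPOSTN and 60 in control for KO, and 58 with rPOSTN and 60 in control for WT. The summed level of all members was 1584 ± 56.7 CPM in KO control cultures against 5437 ± 367 CPM in KO vehicle ganglia, and 1893 ± 62 CPM in WT control cultures against 5219 ± 429 CPM in WT vehicle ganglia (SD, n = 3 each). The lowest ganglion sum lay above the highest culture sum.

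**Figure D1:**
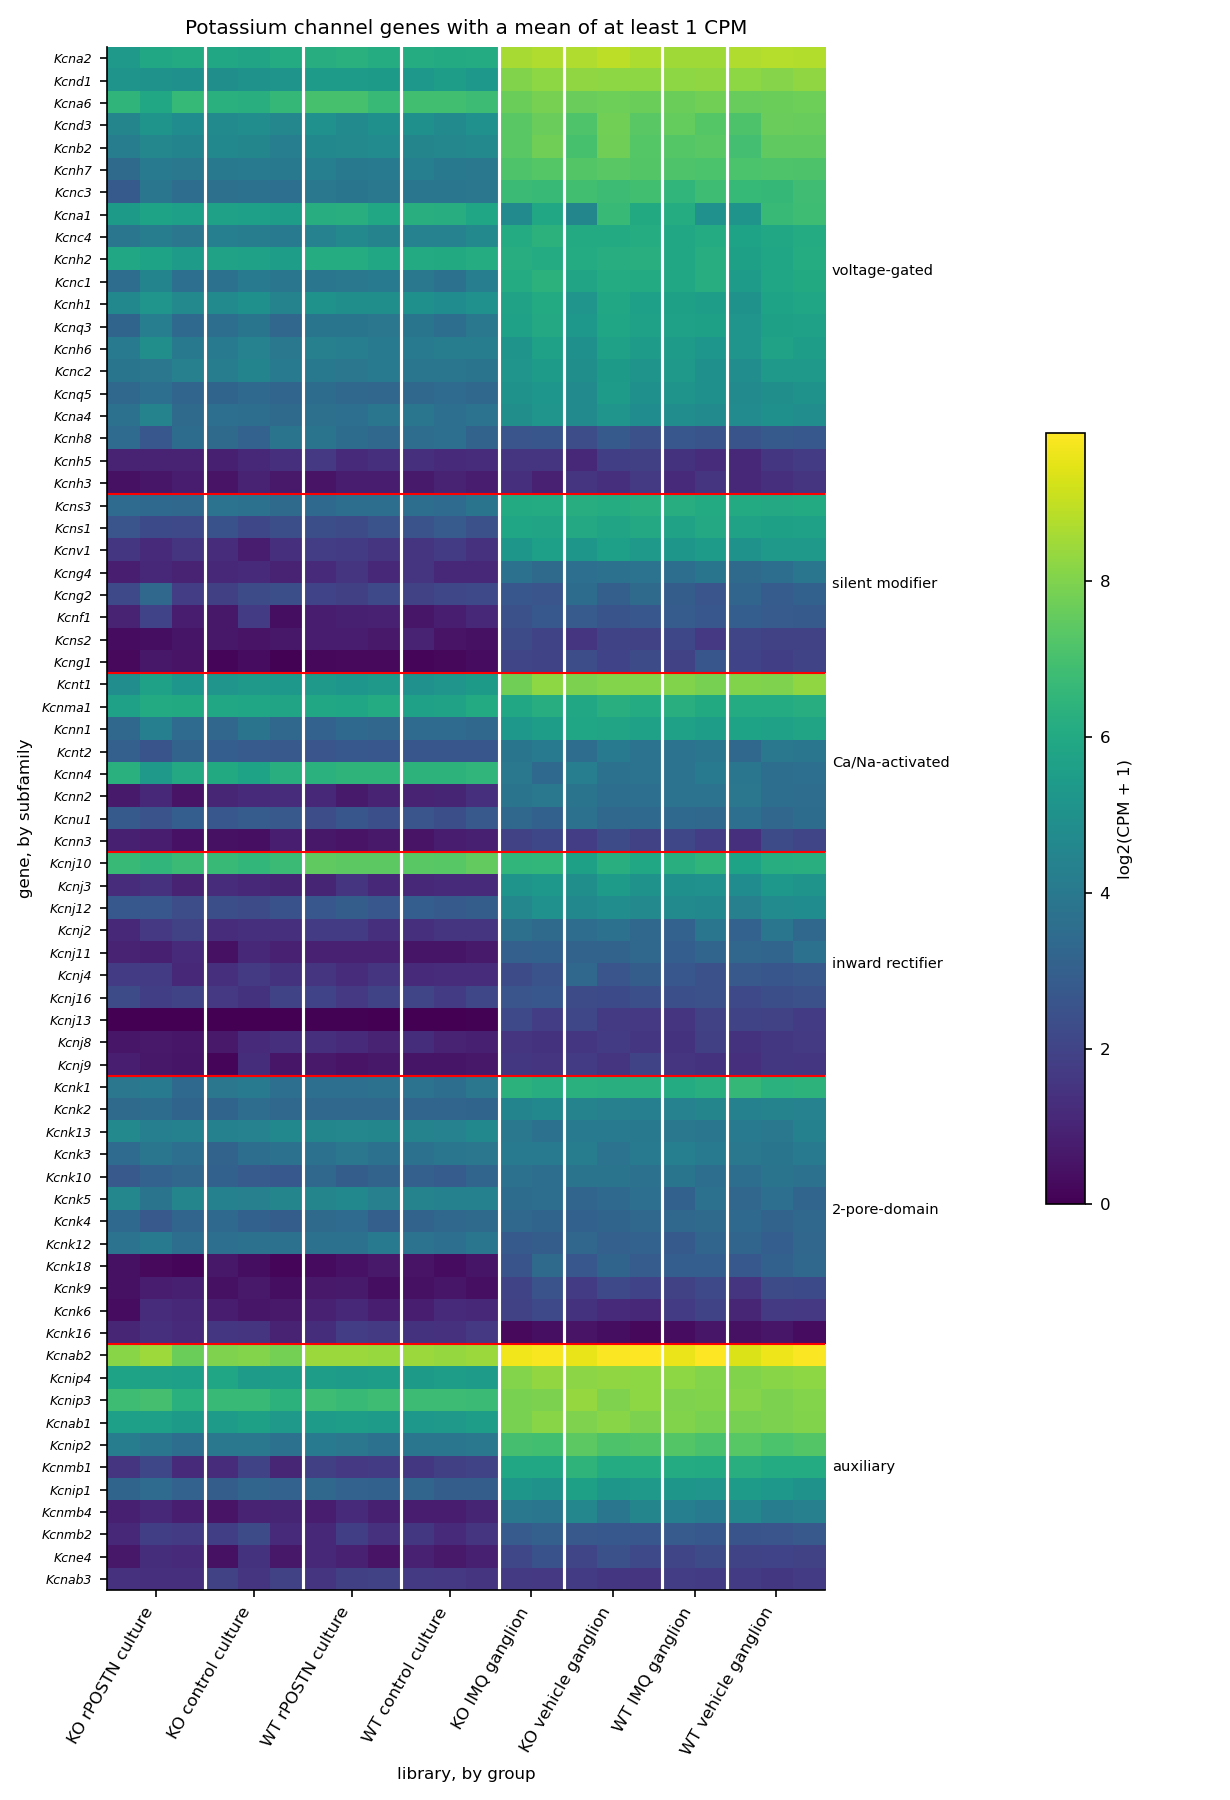
Level of 69 members with a mean of at least 1 CPM over the 22 libraries, as log2(CPM + 1), 1 row per gene grouped by subfamily and 1 column per library grouped by condition. Darker colours are lower levels, and the culture columns are darker than the ganglion columns for most rows in every subfamily, and columns of 1 preparation resemble each other whatever the treatment or genotype.

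Levels per kilobase of exon allow genes to be compared with each other. In WT vehicle ganglia the highest was Kcnab2, a cytoplasmic subunit of voltage-gated channels, at 142 ± 21.4 CPM per kb, and in KO vehicle ganglia it was again Kcnab2, at 157 ± 18.8 CPM per kb (SD, n = 3). Next in WT vehicle ganglia, per kb of exon, came the calcium-binding subunits Kcnip4 at 76.8 ± 5.17 and Kcnip3 at 73.7 ± 4.21 CPM per kb, which did not differ beyond their spread. The A-type channel Kcnd1, which those subunits can join, followed at 55.8 ± 2.98 CPM per kb and led the pore-forming members. Kcnip2 at 42.8 ± 3.08 CPM per kb and the background channel Kcnk1 at 38.4 ± 3.86 CPM per kb lay within a combined SD of each other, as did Kcna2 at 36.3 ± 0.944 CPM per kb and Kcnk1. Kcna6 stood at 33.8 ± 1.14 CPM per kb in the same libraries.

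The order was different in culture. Kcnab2 remained first per kb of exon, at 44.6 ± 3.78 CPM per kb in KO control cultures and 59.8 ± 1.84 CPM per kb in WT control cultures. In WT control cultures Kcnj10 came second at 31.2 ± 2.29 CPM per kb, within its spread of Kcnip3 at 30.5 ± 0.441 CPM per kb, and in KO control cultures Kcnip3 came second at 26.7 ± 3.07 CPM per kb ahead of Kcnj10 at 18.5 ± 1.33 CPM per kb. Kcna6 (19.3 ± 0.957 CPM per kb) and Kcnn4 (16.7 ± 0.795 CPM per kb) stood below them in WT control cultures, and below these came Kcna1 (14.0 ± 1.89 CPM per kb) and Kcnh2 (13.6 ± 0.652 CPM per kb), which did not differ beyond their spread. Kcnd1, first among pore-forming members of the ganglion, ranked lower than all of these in WT control cultures.

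Across the 10 ganglion libraries, 47 members had a mean of at least 10 CPM. Their median coefficient of variation was 12%, and 33 of them varied by under 15%. Kcnd1 varied least, at 4.77%. Kcna1, a low-threshold voltage-gated subunit of large sensory neurons and their axons, varied most, at 55.3%, with values of 22.4 to 111 CPM. It was low in KO IMQ 1 (25.1 CPM), KO vehicle 1 (22.4 CPM), WT IMQ 2 (30.9 CPM) and WT vehicle 1 (33.5 CPM), and lay between 59.9 and 111 CPM in the other 6, so the low libraries came from all 4 groups. The next in spread were Kcnh1 (21.2%) and Kcnj10 (20.9%).

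Most members differed in level between cultures and ganglia, a contrast that coincides with the deposited table. Tested with edgeR's quasi-likelihood test and called at an adjusted p (Benjamini-Hochberg over all genes) under 0.05, 10 of 83 tested members (12%) were higher and 61 (73.5%) lower in KO control cultures than in KO vehicle ganglia, where 70.1% of all 18162 tested genes were called, 36.4% higher and 33.8% lower. In WT, 9 members (10.8%) were higher and 59 (71.1%) lower in control cultures than in vehicle ganglia, where 69% of all tested genes were called, 35.2% higher and 33.7% lower. The median log2 fold change of the members was −1.74 in KO and −1.62 in WT, and that of all tested genes was 0.04 in KO and 0.01 in WT. In both genotypes 9 members were higher and 57 lower, which was 93% of the KO calls and 97.1% of the WT calls, and no member was called in opposite directions. More than 4-fold lower in both genotypes were 34 members. The shares of all tested genes called alike in both genotypes, or more than 4-fold lower in both, were not counted. These counts are therefore not read as particular to the members. In bulk RNA, fewer cells of a type and less RNA per cell cannot be told apart.

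**Figure D2:**
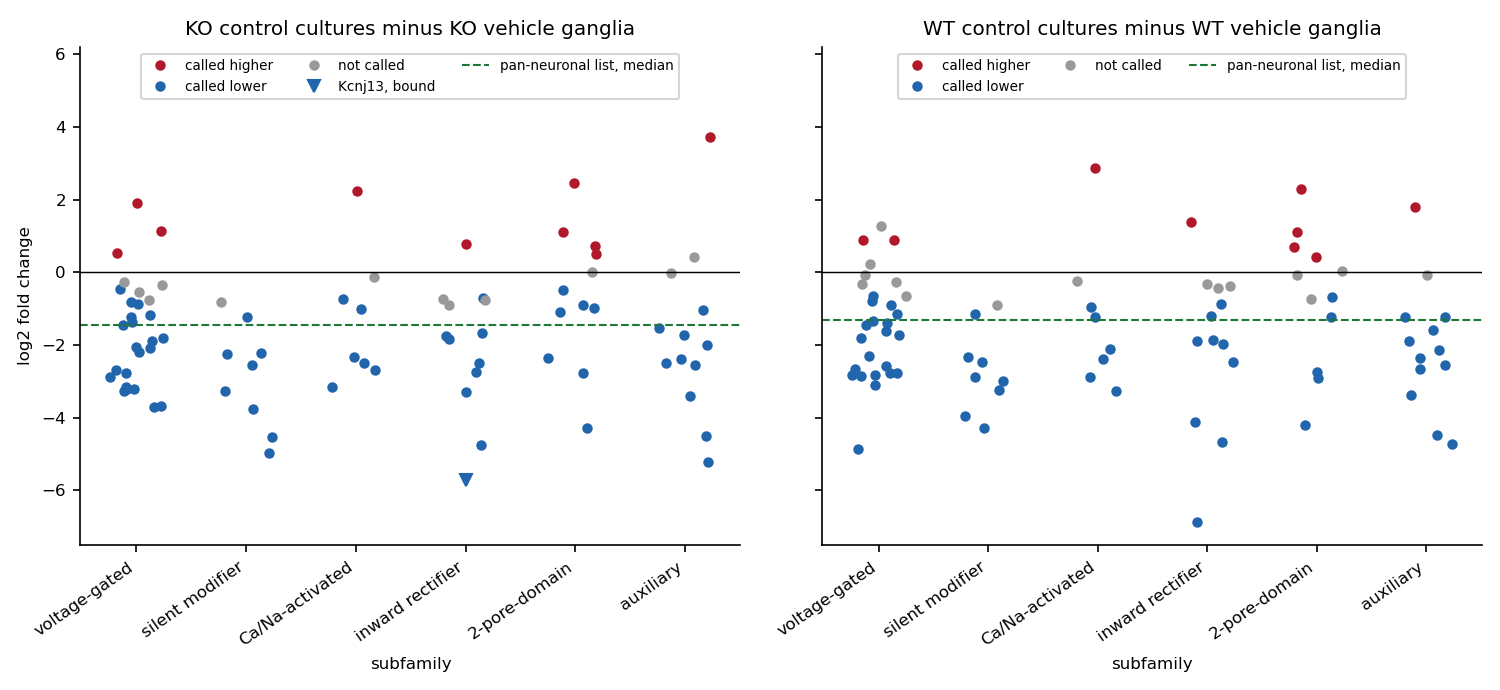
Log2 fold change of each tested member between control cultures and vehicle ganglia, KO in the left panel and WT in the right, by subfamily. Red points were called higher, blue lower and grey not called, the dashed line marks the median of the pan-neuronal genes (−1.45 in KO and −1.30 in WT), and the triangle places Kcnj13 in KO at its bound. Silent modifiers have no red point in either panel, and 2-pore-domain members have 4 red points in each, whereas on the scale of the pan-neuronal genes 8 of them in KO and 7 in WT were higher.

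Neuronal transcripts also made up less of the cultures. Of 16 pan-neuronal genes, 14 were lower in culture in each genotype, and their summed level was 7880 to 8587 CPM in KO control cultures against 20676 to 23090 CPM in KO vehicle ganglia, and 8609 to 8968 CPM in WT control cultures against 19068 to 21569 CPM in WT vehicle ganglia. All 4 peptidergic nociceptor markers were lower in both genotypes, and 6 of 7 non-peptidergic and pruriceptor markers. The 8 markers of myelinating Schwann cells fell in 7 cases in each genotype, and all 5 proliferation markers rose. Satellite glia markers were mixed, with 3 higher and 4 lower of 7 in each genotype and a sum of 2064 to 2590 CPM in KO control cultures against 3313 to 4686 CPM in KO vehicle ganglia, and 2397 to 2872 CPM in WT control cultures against 3520 to 4778 CPM in WT vehicle ganglia. No marker list had a gene at 0 counts in vehicle ganglia, and 1 marker, the pruriceptor gene Mrgpra3, was at 0 in KO control cultures. The part of these shifts in the channel results was tested only for the pan-neuronal genes.

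Libraries were then scaled so that the geometric mean of the pan-neuronal genes stayed level between cultures and ganglia. This moved log2 fold changes up by 1.28 in KO and 1.16 in WT. Single pan-neuronal genes were not level, since under TMM they ran from −2.79 to −0.09 in KO and −2.44 to 0.10 in WT. Small shifts on this scale lie inside that spread. The split of members was 21 higher and 41 lower in KO and 21 higher and 38 lower in WT. All tested genes then divided into 74.4% higher and 10.8% lower in KO, and 71.6% higher and 11.5% lower in WT. The members' median log2 fold change on this scale was −0.48 in KO and −0.45 in WT, where the median of all tested genes moved by 1.32 in KO and 1.18 in WT. All 41 and 38 of these lower members were lower on the TMM scale too. Direction turned to higher for 7 members called lower in KO (Kcnu1, Kcnk10, Kcnc2, Kcnk2, Kcnh2, Kcnk3 and Kcnj16) and for 3 in WT (Kcnk10, Kcna6 and Kcnh1), and the call was lost for 13 in KO and 18 in WT. Members described below as lower on both scales passed the test under TMM and under the pan-neuronal scaling. Fold changes and adjusted p-values given with them are those under TMM unless the pan-neuronal scale is named.

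Among the voltage-gated subunits, 3 of 28 tested were higher and 21 lower in KO cultures, and 2 higher and 20 lower in WT cultures. With the pan-neuronal genes level, the split was 6 higher and 14 lower in KO and 8 higher and 13 lower in WT. The A-type family, which carries a fast transient current below threshold, was among the lowest. Kcnd1 had 29.5, 31.7 and 33.4 CPM in KO control cultures against 304, 294 and 299 CPM in KO vehicle ganglia, and 38, 45.9 and 37.9 CPM in WT control cultures against 299, 277 and 308 CPM in WT vehicle ganglia. No culture library came near any ganglion library. The log2 fold change was −3.16 ± 0.11 in KO (SE; edgeR adjusted p = 5.75e-11) and −2.83 ± 0.10 in WT (1.27e-10), lower on both scales. Kcnd3 fell by 2.69 ± 0.18 in KO and by 2.59 ± 0.18 in WT (log2, SE), also on both scales, and the sparse Kcnd2, at most 0.331 CPM in any control culture, was lower on both scales as well. Kcnd1 lies on the X chromosome, and WT culture 3, the one with Xist, had 37.9 CPM beside 38 and 45.9 CPM in the others.

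The Shaker-type subunits of axons and terminals divided. Kcna2, whose channels sit beside the node of Ranvier, had 59.1, 53.5 and 66.9 CPM in KO control cultures against 425, 476 and 407 CPM in KO vehicle ganglia, and 68.3, 65 and 67.3 CPM in WT control cultures against 422, 444 and 429 CPM in WT vehicle ganglia. The groups did not overlap in either genotype, as for 75 of 83 members in KO (90.4%, against 71% of all tested genes) and 71 of 83 in WT (85.5%, against 76.1%). The log2 fold change was −2.78 ± 0.11 in KO and −2.66 ± 0.10 in WT (SE; edgeR adjusted p = 1.48e-10 and 2.15e-10), lower on both scales. Its partner in mixed channels, Kcna1, had 49.1, 47 and 44.5 CPM in KO control cultures against 22.4, 104 and 62.7 CPM in KO vehicle ganglia, and 73, 71.5 and 56.7 CPM in WT control cultures against 33.5, 103 and 111 CPM in WT vehicle ganglia. These groups overlapped, and the change was −0.35 ± 0.46 in KO and −0.27 ± 0.46 in WT (edgeR adjusted p = 0.508 and 0.61), with a sign that turned positive on the pan-neuronal scale. Kcna4, an A-type subunit of small neurons, fell by 1.36 ± 0.14 in KO and by 1.14 ± 0.14 in WT under TMM, but on the pan-neuronal scale it was not called and stood at 0.02 in WT. Kcna6 fell by 1.22 ± 0.11 in KO and by 0.78 ± 0.10 in WT under TMM, but was higher in WT on the pan-neuronal scale. Its exons share 39.6% of their length with an unnamed gene on the opposite strand, Gm26673, at 0.141 to 0.513 CPM in control cultures and 7.46 to 9.43 CPM in vehicle ganglia, and the strand setting of the counting is not given in the sources used here.

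Kcnb2, a delayed rectifier of neuron bodies, and Kcnc4 fell in both genotypes. Kcnb2 had 23.4, 22.4 and 17.9 CPM in KO control cultures against 128, 212 and 157 CPM in KO vehicle ganglia, and 21.6, 22.9 and 24.3 CPM in WT control cultures against 121, 177 and 180 CPM in WT vehicle ganglia. The highest culture library lay far below the lowest ganglion library. Kcnb2 changed by −2.88 ± 0.20 in KO and −2.77 ± 0.20 in WT, and Kcnc4, of the family that repolarises fast spikes, by −1.88 ± 0.12 and −1.44 ± 0.12 (SE). Under TMM the edgeR adjusted p-values were no higher than 1.69e-07. Both were lower on the pan-neuronal scale too, where Kcnc4 stood at −0.60 in KO (edgeR adjusted p = 0.000222). In WT it passed there only narrowly, at −0.27 (edgeR adjusted p = 0.0401).

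Of the subunits that carry the slow M current, which holds back repetitive firing, Kcnq3 had 10.9, 13.4 and 8.5 CPM in KO control cultures against 37.5, 57.6 and 49.7 CPM in KO vehicle ganglia, and 13.5, 11 and 14.8 CPM in WT control cultures against 35, 48 and 49.9 CPM in WT vehicle ganglia. The groups did not overlap, and Kcnq3 fell by 2.06 ± 0.21 in KO and by 1.73 ± 0.21 in WT. Kcnq5 changed by −1.82 ± 0.17 in KO and −1.62 ± 0.17 in WT (edgeR adjusted p at most 6.59e-06 for both genes under TMM). Both were lower on the pan-neuronal scale too, but by less. There Kcnq3 stood at −0.79 in KO and −0.56 in WT (edgeR adjusted p = 0.00244 and 0.0193). Kcnq5 stood at −0.55 in KO and −0.45 in WT (edgeR adjusted p = 0.0135 and 0.0371).

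Of the ether-a-go-go family, Kcnh8 rose by 1.14 ± 0.22 in KO (edgeR adjusted p = 0.000505) and by 0.88 ± 0.22 in WT (0.00342), higher on both scales. It averaged 10.2 ± 2.76 CPM in KO control cultures against 4.88 ± 1.07 CPM in KO vehicle ganglia, and 9.93 ± 1.8 CPM in WT control cultures against 5.51 ± 0.492 CPM in WT vehicle ganglia (SD, n = 3 each). Kcnh2, the ERG channel known from cardiac repolarisation, had 51.5, 49.2 and 45.2 CPM in KO control cultures against 67.8, 70.4 and 73.7 CPM in KO vehicle ganglia, and 64.7, 63.4 and 69.4 CPM in WT control cultures against 48.2, 55.2 and 69.5 CPM in WT vehicle ganglia. It fell by 0.45 ± 0.12 in KO (edgeR adjusted p = 0.00475) under TMM and changed by 0.22 ± 0.12 in WT (0.124), but was higher in both on the pan-neuronal scale. Without WT vehicle ganglion 3 the WT change passed the test, at 0.37 (adjusted p = 0.012, with 9.04e-08 to 0.486 over all alternatives). The difference between the genotypes' changes was −0.68 ± 0.17 and was not called (edgeR adjusted p = 0.316).

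**Figure D3:**
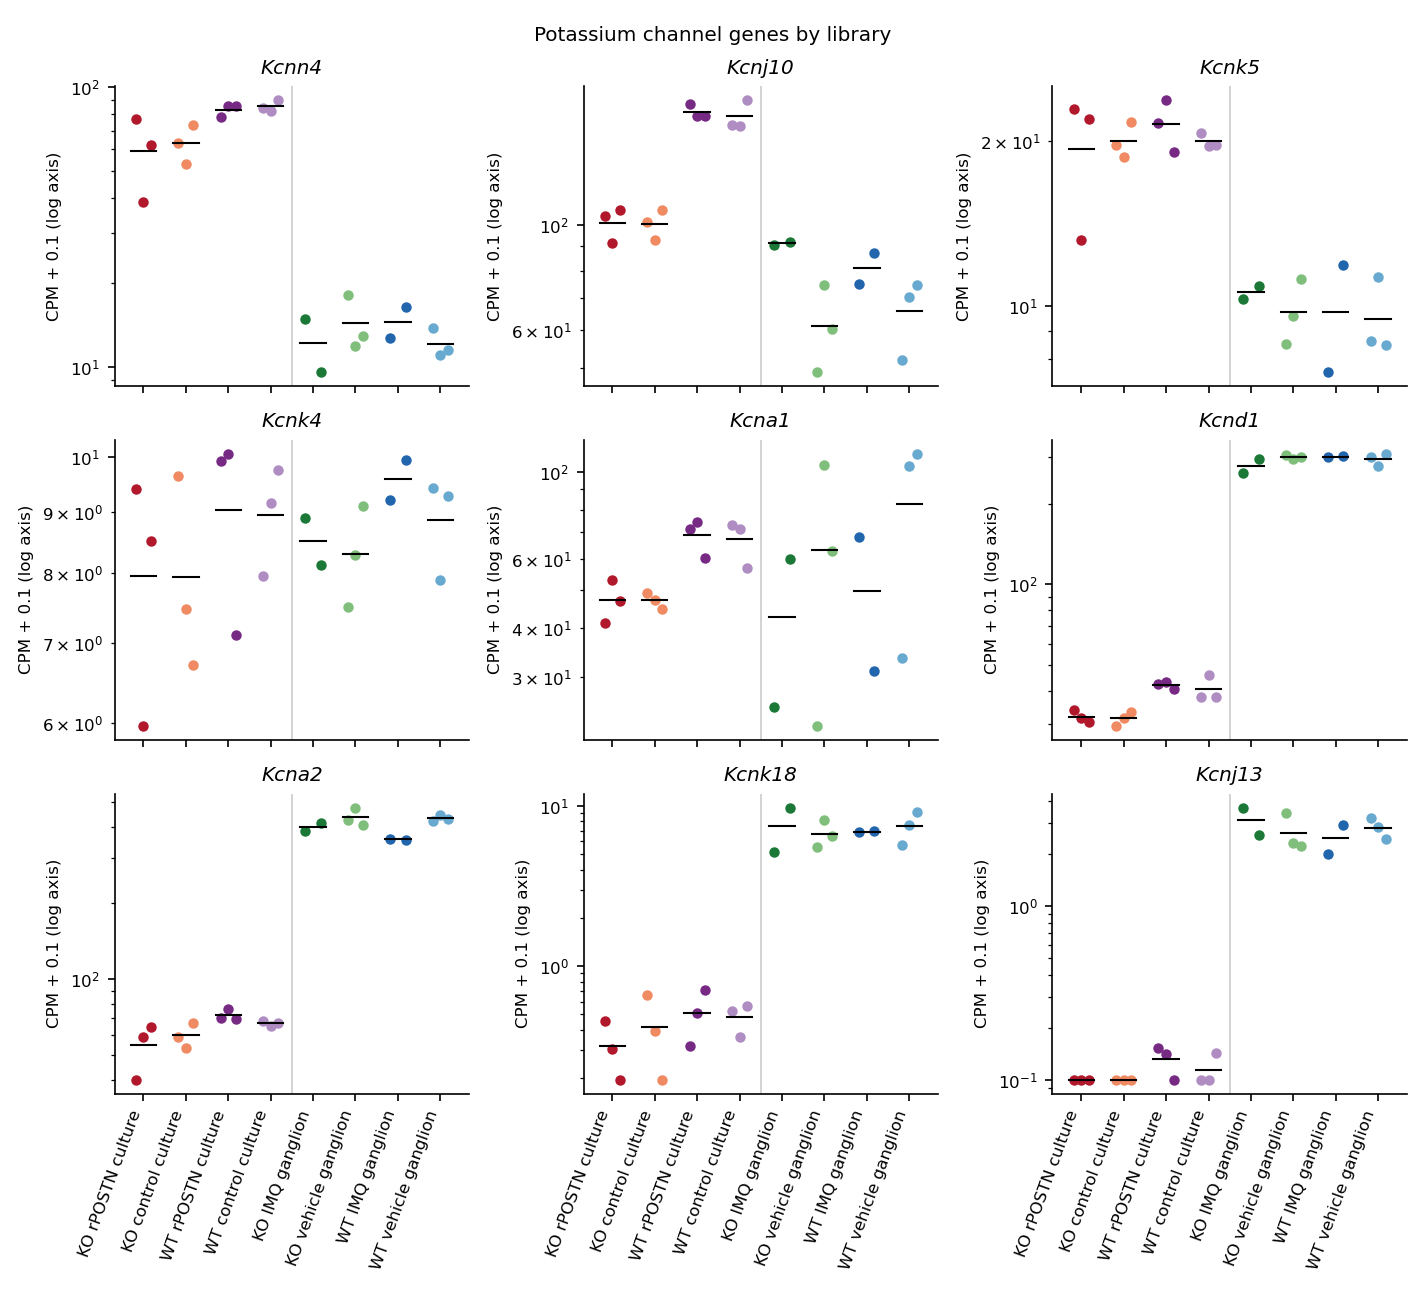
Levels of 9 members in all 22 libraries, in CPM (with 0.1 added) on a log axis, 1 panel per gene. Points are libraries and bars are group means. Kcnn4, Kcnj10 and Kcnk5 sit higher in the culture groups, Kcnk4 and Kcna1 overlap between preparations, and Kcnd1, Kcna2, Kcnk18 and Kcnj13 sit far lower in the culture groups.

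The silent modifiers were the subfamily with no member higher in culture on either scale. Of 9 tested, 8 were lower in each genotype, and 6 in KO and 7 in WT with the pan-neuronal genes level. Their summed level was 24 CPM in KO control cultures against 205 CPM in KO vehicle ganglia, and 25.3 CPM in WT control cultures against 184 CPM in WT vehicle ganglia (means, n = 3 each). Kcnv1 had 1.4, 0.679 and 1.61 CPM in KO control cultures against 37.1, 46.7 and 40.3 CPM in KO vehicle ganglia, and 1.8, 2.31 and 1.64 CPM in WT control cultures against 33.2, 39.4 and 40.3 CPM in WT vehicle ganglia. It was nearly lost from the cultures, with a log2 fold change of −4.98 ± 0.23 in KO and −4.27 ± 0.22 in WT (edgeR adjusted p = 7.4e-10 and 2.03e-09).

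Kcns1, a modifier of delayed rectifiers that is typical of myelinated sensory neurons, had 4.68, 3.39 and 4.25 CPM in KO control cultures against 61.9, 54.2 and 62.2 CPM in KO vehicle ganglia, and 4.78, 6.1 and 4.43 CPM in WT control cultures against 51, 47.9 and 49.4 CPM in WT vehicle ganglia. Its log2 fold change was −3.77 ± 0.15 in KO and −3.25 ± 0.14 in WT. Kcns3, the silent member with the highest level per kb in both preparations, fell by 2.55 ± 0.12 in KO and by 2.47 ± 0.12 in WT. Kcng4 fell by 3.27 ± 0.22 in KO and fell by 3.00 ± 0.21 in WT, and Kcng1 changed by −4.54 ± 0.39 and −3.94 ± 0.38 (edgeR adjusted p at most 8.82e-07 for each of these 4 genes). Without KO control culture 2, Kcng1 stood at −5.16 in KO. Each was lower on both scales.

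Among the calcium- and sodium-activated subunits, 1 of 8 was higher and 6 lower in each genotype under TMM, and with the pan-neuronal genes level 3 higher and 4 lower in KO and 2 higher and 3 lower in WT. The exception was Kcnn4, the intermediate-conductance channel known from red cells, lymphocytes and dividing cells. It had 63, 53 and 73 CPM in KO control cultures against 18, 11.8 and 12.8 CPM in KO vehicle ganglia, and 84.3, 82.4 and 90.2 CPM in WT control cultures against 13.7, 10.9 and 11.4 CPM in WT vehicle ganglia. The lowest culture library stood above the highest ganglion library in each genotype, and Kcnn4 rose by 2.24 ± 0.16 in KO (log2, SE; edgeR adjusted p = 4.12e-08) and by 2.86 ± 0.16 in WT (5.18e-09), higher on both scales. The summed level of the 5 proliferation markers moved with it, at 77.3 to 163 CPM in KO control cultures against 8.23 to 29.2 CPM in KO vehicle ganglia, and 93.9 to 107 CPM in WT control cultures against 11.5 to 16.5 CPM in WT vehicle ganglia, and their part in the result was not tested.

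The small-conductance relative Kcnn1, which shapes the afterhyperpolarisation of neurons, had 8.51, 13 and 8.78 CPM in KO control cultures against 55.8, 54.2 and 50.3 CPM in KO vehicle ganglia, and 10, 10 and 9.15 CPM in WT control cultures against 52.6, 49.1 and 54.1 CPM in WT vehicle ganglia. It fell by 2.32 ± 0.14 in KO and by 2.39 ± 0.14 in WT. Kcnt1, a sodium-activated channel and the highest of this subfamily per kb in the ganglion, had 34.9, 39.4 and 38.3 CPM in KO control cultures against 248, 263 and 265 CPM in KO vehicle ganglia, and 31.3, 35.1 and 41.3 CPM in WT control cultures against 260, 250 and 306 CPM in WT vehicle ganglia. Its log2 fold change was −2.70 ± 0.12 in KO and −2.89 ± 0.12 in WT (edgeR adjusted p = 6.04e-10 and 4.14e-10), and both genes were lower on both scales. Kcnt2 fell by 1.00 ± 0.20 in KO and fell by 1.22 ± 0.20 in WT under TMM but was not called on the pan-neuronal scale. Kcnma1, the large-conductance channel, changed by −0.12 ± 0.12 in KO and −0.25 ± 0.12 in WT (edgeR adjusted p = 0.364 and 0.0705) and was higher in both on the pan-neuronal scale. In WT it was called lower with relative-log size factors (−0.28, edgeR adjusted p = 0.0457). Without WT control culture 3 it was also called lower in WT (−0.40, edgeR adjusted p = 0.0078).

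The inward rectifiers were lower in 9 and higher in 1 of 13 tested members in each genotype, and with the pan-neuronal genes level 2 were higher and 6 lower in each. The member that rose on both scales was Kcnj10, the glial potassium-clearing channel. It had 101, 92.7 and 107 CPM in KO control cultures against 48.9, 74.4 and 60.3 CPM in KO vehicle ganglia, and 162, 161 and 183 CPM in WT control cultures against 51.8, 70.5 and 74.7 CPM in WT vehicle ganglia. No culture library fell into the ganglion range, and the log2 fold change was 0.79 ± 0.16 in KO (edgeR adjusted p = 0.000592) and 1.39 ± 0.16 in WT (5.12e-06). The summed satellite glia markers given above were lower in culture in every library. Kcnj16, which can pair with the Kcnj10 product, stood at 2.11, 1.7 and 3.07 CPM in KO control cultures against 3.89, 3.72 and 4.31 CPM in KO vehicle ganglia and was called lower in KO under TMM (−0.71 ± 0.23, edgeR adjusted p = 0.0146) but higher on the pan-neuronal scale.

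Several inward rectifiers of neurons fell, and Kcnj6 was not called. Kcnj3, a subunit of the channels opened by G proteins, had 1.4, 1.16 and 1.04 CPM in KO control cultures against 29.5, 42.4 and 32.2 CPM in KO vehicle ganglia, and 1.22, 1.32 and 1.26 CPM in WT control cultures against 26.9, 37.6 and 33.7 CPM in WT vehicle ganglia. The fold change was −4.76 ± 0.21 in KO and −4.66 ± 0.20 in WT (log2, SE; edgeR adjusted p = 4.38e-10 and 5.71e-10), and 31.1% of its exon length lies opposite Gm26794. Kcnj9, of the same channel type, had 0.14, 1.45 and 0.52 CPM in KO control cultures, and it fell by 1.68 ± 0.50 in KO and by 1.87 ± 0.53 in WT under TMM. Without KO control culture 2 its KO value was −2.81, and on the pan-neuronal scale it was not called (−0.40 in KO, −0.71 in WT). Kcnj6, a further subunit of these channels, stood at −0.73 ± 0.58 in KO and −0.33 ± 0.59 in WT (edgeR adjusted p = 0.274 and 0.633), and at 0.53 and 0.83 on the pan-neuronal scale, where it was not called either. Kcnj11, the pore of the ATP-sensitive channel, changed by −3.28 ± 0.29 in KO and −4.13 ± 0.31 in WT, and its receptor subunit Abcc8, outside the symbol rule, changed by −1.99 in KO and −2.55 in WT. Kcnj12, a strong rectifier, changed by −2.50 ± 0.16 in KO and −1.88 ± 0.16 in WT, and like Kcnj3 and Kcnj11 it was lower on both scales.

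Kcnj13, a rectifier known from transporting epithelia, had 0, 0 and 0 CPM in KO control cultures against 3.31, 2.2 and 2.12 CPM in KO vehicle ganglia, and 0, 0 and 0.0422 CPM in WT control cultures against 3.09, 2.75 and 2.32 CPM in WT vehicle ganglia. The counts summed to 0 in KO control cultures against 134 in KO vehicle ganglia, and a floor of 3 counts over the group made the level at least 52.5-fold lower. In WT they summed to 1 in control cultures against 141 in vehicle ganglia, a ratio of 166 (95% counting interval 29.3 to 6603), and intervals and floors cover counting error only. Almost all culture signal was absent at this depth, and the edgeR adjusted p was 6.79e-07 in KO and 8.55e-07 in WT, lower on both scales. Kcnj13 shares 49.1% of its exon length with Gigyf2 on the opposite strand, and Gigyf2 averaged 74.5 CPM in KO control cultures against 61.0 CPM in KO vehicle ganglia, and 78.5 CPM in WT control cultures against 58.7 CPM in WT vehicle ganglia.

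The 2-pore-domain channels, which set the resting potential, were the most divided subfamily. Of 12 tested, 4 were higher in each genotype and 7 in KO and 5 in WT lower, with a median log2 fold change of −0.69 in KO and −0.37 in WT, against −2.55 in KO and −2.89 in WT for the silent modifiers. With the pan-neuronal genes level, 8 were higher and 3 lower in KO, and 7 higher and 3 lower in WT. The summed level of the 14 members was 103 CPM in KO control cultures against 174 CPM in KO vehicle ganglia, and 108 CPM in WT control cultures against 187 CPM in WT vehicle ganglia (means, n = 3 each).

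Kcnk5, an alkaline-activated channel known from kidney and other epithelia, had 19.6, 18.6 and 21.6 CPM in KO control cultures against 8.44, 9.5 and 11.1 CPM in KO vehicle ganglia, and 20.6, 19.5 and 19.6 CPM in WT control cultures against 8.56, 11.2 and 8.41 CPM in WT vehicle ganglia. The cultures stood clear of the ganglia, with a rise of 1.12 ± 0.14 in KO and 1.11 ± 0.14 in WT (log2, SE; edgeR adjusted p = 1.17e-05 and 1.39e-05). The THIK pair rose by less: Kcnk12 by 0.72 ± 0.14 in KO and 0.69 ± 0.14 in WT (edgeR adjusted p = 0.000383 and 0.000572), and Kcnk13, in brain a channel of microglia, by 0.51 ± 0.13 and 0.41 ± 0.13 (0.00382 and 0.0146). The Kcnk13 call in WT was lost without WT vehicle ganglion 1, WT vehicle ganglion 2 or WT control culture 3, at adjusted p-values of 0.052, 0.0787 and 0.0785, within a range of 1.07e-07 to 0.0787 over all alternatives. Macrophage markers, a cell type related to microglia, were lower in culture in 7 of 8 cases in KO and 6 of 8 in WT. The marker Cd68 was higher in both genotypes, by 3.28 in KO and 2.72 in WT (log2), and Adgre1 was not called in WT (−0.18). The part of these markers in the Kcnk13 result was not tested. Kcnk16, known from pancreatic islets, was sparse, at 1.57 ± 0.546 CPM in KO control cultures against 0.305 ± 0.144 CPM in KO vehicle ganglia, and 1.84 ± 0.265 CPM in WT control cultures against 0.384 ± 0.118 CPM in WT vehicle ganglia (SD, n = 3 each), and rose by 2.45 ± 0.42 and 2.28 ± 0.40. All 4 were higher on both scales.

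The background channels better known from neurons were lower in culture or were not called under TMM. Kcnk18, which encodes TRESK, a calcineurin-regulated channel of nociceptors, had 0.561, 0.291 and 0.0945 CPM in KO control cultures against 5.45, 8.03 and 6.37 CPM in KO vehicle ganglia, and 0.425, 0.263 and 0.464 CPM in WT control cultures against 5.6, 7.46 and 9.11 CPM in WT vehicle ganglia. It fell by 4.28 ± 0.39 in KO and by 4.20 ± 0.38 in WT (edgeR adjusted p = 4.73e-07 and 4.57e-07), and without KO control culture 1 the KO value was −5.03. Kcnk1, the subfamily's highest per kb in the ganglion, had 14.2, 15.4 and 11.1 CPM in KO control cultures against 76.9, 74.1 and 72.7 CPM in KO vehicle ganglia, and 12.6, 11 and 14 CPM in WT control cultures against 95.5, 79.3 and 82.4 CPM in WT vehicle ganglia. Both genes were lower on both scales in both genotypes, and the groups of neither overlapped.

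The mechanosensitive TREK channels Kcnk2 and Kcnk10 fell under TMM, Kcnk2 with −0.97 ± 0.12 in KO and −1.24 ± 0.12 in WT and Kcnk10 with −0.90 ± 0.15 and −0.67 ± 0.15, but on the pan-neuronal scale Kcnk10 was higher in both genotypes and Kcnk2 higher in KO and uncalled in WT. Their relative Kcnk4 had 9.54, 7.37 and 6.61 CPM in KO control cultures against 7.4, 8.18 and 9 CPM in KO vehicle ganglia, and 7.85, 9.05 and 9.65 CPM in WT control cultures against 9.32, 7.79 and 9.17 CPM in WT vehicle ganglia. Culture and ganglion libraries interleaved, and the change was 0.02 ± 0.17 in KO and 0.05 ± 0.16 in WT (edgeR adjusted p = 0.922 and 0.809), although Kcnk4 too was higher on the pan-neuronal scale, and 13.1% of its exon length is shared with Catsperz on the same strand. The acid-sensitive Kcnk3 fell by 0.49 ± 0.16 in KO under TMM (edgeR adjusted p = 0.0139) and changed by −0.07 ± 0.16 in WT (0.722), and was higher in both on the pan-neuronal scale.

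Of 13 tested auxiliary subunits, 1 was higher and 10 lower in KO cultures, and 1 higher and 11 lower in WT cultures. With the pan-neuronal genes level, 2 were higher and 8 lower in KO, and 2 higher and 6 lower in WT. Kcnmb1, the beta subunit that raises the calcium sensitivity of the large-conductance channel and is best known from smooth muscle, had 1.4, 3.1 and 1.09 CPM in KO control cultures against 84.6, 66.8 and 68.4 CPM in KO vehicle ganglia, and 2.02, 2.68 and 3.04 CPM in WT control cultures against 75.8, 66.8 and 66.2 CPM in WT vehicle ganglia. It fell by 5.21 ± 0.27 in KO and by 4.71 ± 0.26 in WT (log2, SE; edgeR adjusted p = 2.11e-09 and 3.94e-09), and without KO control culture 2 the KO value was −5.84. Of 6 mural cell markers, 3 were higher and 2 lower in each genotype, with a median log2 fold change of 0.33 in KO and 0.54 in WT. Those lower were Myh11, the smooth muscle myosin (−2.70 in KO, −1.62 in WT), and Rgs5 (−1.86 in KO, −1.80 in WT), those higher were Cspg4 (2.48 in KO, 2.70 in WT), Notch3 and Pdgfrb, and the smooth muscle actin Acta2 was not called (−0.01 in KO, 0.23 in WT). Their sum, of which Rgs5 made up most in the ganglia, was 213 to 258 CPM in KO control cultures against 326 to 400 CPM in KO vehicle ganglia, and 314 to 334 CPM in WT control cultures against 322 to 416 CPM in WT vehicle ganglia, and their part in the result was not tested. Kcnmb4, the neuronal beta subunit, had 0.421, 0.97 and 1.04 CPM in KO control cultures against 23, 13.9 and 21.4 CPM in KO vehicle ganglia, and 0.743, 0.736 and 1.05 CPM in WT control cultures against 22.7, 17.4 and 18.8 CPM in WT vehicle ganglia. Both beta subunits were low in every culture library while Kcnma1, the pore they join, was not called under TMM and was higher on the pan-neuronal scale. Kcnmb4 fell by 4.49 ± 0.28 in KO and by 4.48 ± 0.28 in WT, with 20.8% of its exon length opposite Kcnmb4os2, at 0.933 to 1.18 CPM in the 4 untreated groups.

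Of the KChIP subunits, calcium sensors that bring A-type channels to the membrane, Kcnip2 and Kcnip4 fell with Kcnd1 and Kcnd3. Kcnip2 had 14.6, 14.5 and 11.8 CPM in KO control cultures against 169, 138 and 149 CPM in KO vehicle ganglia, and 13.7, 13.8 and 14.6 CPM in WT control cultures against 159, 137 and 150 CPM in WT vehicle ganglia, with a log2 fold change of −3.39 ± 0.12 in KO and −3.37 ± 0.12 in WT. Kcnip4 fell by 2.56 ± 0.11 in KO and by 2.66 ± 0.11 in WT (edgeR adjusted p at most 5.09e-10 for both genes), and both were lower on both scales. Kcnip3 changed by less under TMM, at −1.53 in KO and −1.24 in WT. On the pan-neuronal scale it stood at −0.25 in KO, where it was called lower, and at −0.07 in WT, where it was not called. Of the cytoplasmic beta subunits, Kcnab1 changed by −2.49 ± 0.11 in KO and −2.56 ± 0.11 in WT and was lower on both scales. Kcnab2 changed by −1.73 ± 0.13 in KO and −1.22 ± 0.13 in WT, and its WT call was lost on the pan-neuronal scale. Kcne3 fell in WT alone among the calls (−2.14 ± 0.85, edgeR adjusted p = 0.0378; KO −0.02 ± 0.71, 0.98), but at 10 counts over the 3 WT control cultures against 38 over the 3 WT vehicle ganglia. That WT call was lost without any 1 of WT vehicle ganglia 1, 2 and 3 or WT control cultures 1 and 2, at adjusted p-values of 0.0653, 0.0666, 0.0579, 0.112 and 0.107, within 0.00187 to 0.285 over all alternatives. Without WT control culture 3 the WT value was −4.46. The difference between the genotypes' changes was not called.

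The other 26 members tested in these comparisons comprised 2 higher and 21 lower in KO (log2 fold changes of −3.67 to 3.71) and 1 higher and 20 lower in WT (−3.26 to 1.79). The ones called higher were Kcnh4 and Kcne2 in KO and Kcne2 in WT, both sparse and named after their values were seen. Kcne2, a small single-pass subunit, had 34 counts over the 3 KO control cultures against 2 over the 3 KO vehicle ganglia, a ratio of 14.5 (95% counting interval 3.71 to 124), and 33 counts over the 3 WT control cultures against 8 over the 3 WT vehicle ganglia. A further 9 members were too sparse to be tested there, Kcne1, Kcnmb3, Kcnj1, Kcnj5, Kcnv2, Kcnk15, Kcnk7, Kcna3 and Kcna7, none with a group mean above 0.495 CPM.

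Genes outside the symbol rule that bind, place or regulate these channels, with the HCN pacemaker channels, moved in a similar mixture. Of 24 on that list 21 were tested, and 4 were higher and 13 lower in KO cultures and 5 higher and 12 lower in WT cultures. Dpp10, the membrane partner of A-type channels, changed by −3.37 in KO and −3.51 in WT, and its relative Dpp6 by −1.95 and −1.80. Cntnap2, which clusters Kcna2 channels beside the node, changed by −2.72 in KO and −2.29 in WT. Rest, the repressor that keeps neuronal genes off in other cells, had 60.6 ± 2.94 CPM in KO control cultures against 8.55 ± 1.88 CPM in KO vehicle ganglia, and 61.3 ± 3.51 CPM in WT control cultures against 9 ± 0.704 CPM in WT vehicle ganglia (SD, n = 3 each). It rose by 2.90 ± 0.14 in KO and by 2.79 ± 0.14 in WT (edgeR adjusted p = 1.25e-09 and 1.84e-09). The half-site counted in the promoters above is part of the element that the Rest protein binds. Any part of Rest in the channel results was not tested.

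The change with culture was not shown to depend on genotype. Of the 83 members tested, 0 were called for the difference between KO and WT (0.0991% of all tested genes), and DESeq2 called 1, Kcnh2. An unadjusted p under 0.05 was found for 11 members, against 7.65% of all tested genes. The 3 members with the smallest p were Kcnh2, given above, Kcna6 (−0.44 ± 0.15, edgeR adjusted p = 0.474) and Kcnn4 (−0.62 ± 0.22, 0.499). Members called in 1 genotype alone were Kcnj8 and Kcne3 in WT and Kcnh4, Kcnh2, Kcnk6, Kcnk3 and Kcnj16 in KO.

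KO control cultures were compared with WT control cultures directly. Of 83 members 0 were called (0.38% of all tested genes), 12 had an unadjusted p under 0.05, against 13.4% of all tested genes, and DESeq2 called 3. Kcnj10 had 101, 92.7 and 107 CPM in KO control cultures against 162, 161 and 183 CPM in WT control cultures, and in the rPOSTN cultures 104, 91.5 and 107 CPM in KO against 179, 169 and 169 CPM in WT. KO and WT cultures did not overlap in either medium. The rPOSTN values are no independent repeat, since same-numbered control and rPOSTN cultures deviated together. The log2 fold change was −0.70 ± 0.16 (SE; edgeR adjusted p = 0.0782, with 1.84e-05 to 0.179 over the alternatives).

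Kcna6 had 76.4, 74.6 and 96.7 CPM in KO control cultures against 119, 117 and 108 CPM in WT control cultures (−0.43 ± 0.10, edgeR adjusted p = 0.0983), and without KO control culture 3 it passed the test, at −0.59 (adjusted p = 0.0295, with 0.00304 to 0.286 over the alternatives). Kcnj12 had 4.21, 3.78 and 4.63 CPM in KO control cultures against 6.85, 6.05 and 6.53 CPM in WT control cultures (−0.57 ± 0.17, edgeR adjusted p = 0.157). The groups of both genes did not overlap, as for 22 of the 83 members (26.5%) and 28.9% of all tested genes. Genotype in culture coincides with the table and with the mixture of sex-linked transcripts, so these cannot be told apart.

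In the ganglia the members did not pass the test for IMQ. Of 80 tested, 0 were called in KO (1.1% of all tested genes) and 0 in WT (1.3%), by edgeR and by DESeq2, while 9 members in KO and 3 in WT had an unadjusted p under 0.05, against 8.39% and 7.27% of all tested genes. In KO, Kcnk6, a 2-pore-domain subunit, had 2.72 and 3.56 CPM with IMQ against 1.75, 1.27 and 1.17 CPM with vehicle (1.17 ± 0.33, edgeR adjusted p = 0.236). The silent modifier Kcng2 had 5.39 and 5.09 CPM with IMQ against 10.2, 6.95 and 9.73 CPM with vehicle (−0.77 ± 0.22, 0.238), and Kcnn1 had 37.4 and 45.6 CPM with IMQ against 55.8, 54.2 and 50.3 CPM with vehicle (−0.37 ± 0.12, 0.345). Kcnj10 stood at 90.7 and 92 CPM with IMQ against 48.9, 74.4 and 60.3 CPM with vehicle in KO (0.58 ± 0.19, 0.379). None of these 4 pairs of groups overlapped, as was so for 21 of the 80 members (26.2%) and for 23.8% of all tested genes, so the share among members was near the background. The macrophage marker sum was 380 to 438 CPM in KO IMQ against 115 to 142 CPM in KO vehicle ganglia, and 446 to 500 CPM in WT IMQ against 110 to 143 CPM in WT vehicle ganglia.

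In WT ganglia the members with the smallest p were others. Kcna2 had 359 and 355 CPM with IMQ against 422, 444 and 429 CPM with vehicle (−0.27 ± 0.10, edgeR adjusted p = 0.489), and Kcnk1 had 67.1 and 74.7 CPM with IMQ against 95.5, 79.3 and 82.4 CPM with vehicle (−0.27 ± 0.12, 0.648). Kcnj15, an inward rectifier, had 1.3 and 2.57 CPM with IMQ against 0.693, 1.23 and 1.13 CPM with vehicle (0.90 ± 0.37, 0.602). In none of the 3 did the groups overlap, and none passed the test. Groups without overlap were found for 10 of the 80 members (12.5%), against 21.5% of all tested genes. The difference between the IMQ effects in KO and WT was called for 0 of 80 members (0% of all tested genes) by edgeR and by DESeq2. An unadjusted p under 0.05 was found for 1 member, against 2.12% of all tested genes. The smallest p belonged to Kcng3 (−1.02 ± 0.46, edgeR adjusted p = 0.999).

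**Figure D4:**
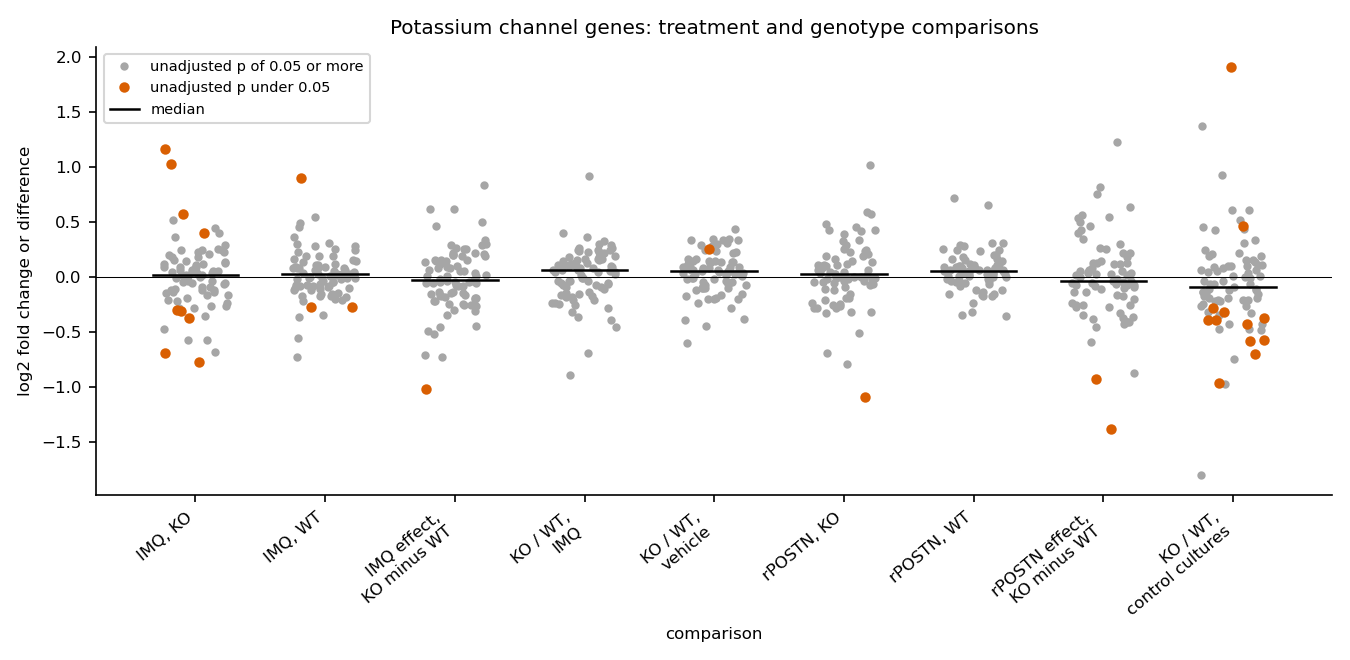
Log2 fold change of each tested member in the 9 comparisons of treatment or genotype other than culture against ganglion. Grey points have an unadjusted p of 0.05 or more, orange points one under 0.05, and the black bar is the median. No member was called at an adjusted p under 0.05 in any of the 9, and the points scatter around 0.

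Genotype made no called difference among members in the ganglion. With vehicle, 0 of 80 were called in KO against WT (0.0116% of all tested genes), and DESeq2 called 0. An unadjusted p under 0.05 was found for 1 member, against 3.08% of all tested genes. That member, Kcns1, had 61.9, 54.2 and 62.2 CPM in KO vehicle ganglia against 51, 47.9 and 49.4 CPM in WT vehicle ganglia, without overlap (0.26 ± 0.10, edgeR adjusted p = 1), where 6.25% of members and 6.92% of all tested genes had no overlap. With IMQ, 0 of 80 were called (0.00581% of all tested genes), and DESeq2 called 0. An unadjusted p under 0.05 was found for 0 members, against 1.85% of all tested genes. The smallest p was that of Kcnj15 (−0.89 ± 0.42, edgeR adjusted p = 0.997).

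Recombinant POSTN made no called difference in culture. Of 74 members tested in each genotype, 0 were called in KO and 0 in WT (0% of all tested genes in each) by edgeR and by DESeq2, and 1 in KO and 0 in WT had an unadjusted p under 0.05, against 0.925% and 3.97% of all tested genes. That member was Kcnj8, the pore of vascular ATP-sensitive channels, with 0.508, 0.612 and 0.522 CPM in KO rPOSTN cultures against 0.608, 1.31 and 1.56 CPM in KO control cultures, a set of values that overlapped (−1.09 ± 0.49, edgeR adjusted p = 1). In WT the smallest p belonged to Kcna2, with 69.9, 75.9 and 69.7 CPM in WT rPOSTN cultures against 68.3, 65 and 67.3 CPM in WT control cultures (0.10 ± 0.05, edgeR adjusted p = 0.999). The difference between the rPOSTN effects in KO and WT was called for 0 of 76 members (0% of all tested genes) by edgeR and by DESeq2. An unadjusted p under 0.05 was found for 2 members, against 1.95% of all tested genes. The smallest p was that of Kcnab3 (−0.93 ± 0.36, edgeR adjusted p = 1).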

How the data were processed

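RNA was sequenced from 10 whole-ganglion and 12 culture libraries of mouse DRG. Per the labels' protocols, strand-specific libraries of poly-A RNA were read from both ends. The authors deposited raw counts per Ensembl gene, as 3 tables. Per the submitters' processing notes, HISAT2 2.1.0, Bowtie2 2.2.3, TopHat2 and GRCm39 were used, with no role or order. For the counting tool, its strand setting and its annotation, the entry is: not given in the sources used here. Symbols and exon lengths came from GENCODE M21, of another build (GRCm38), for 55141 of 55487 genes. Of the members, 28 share exon bases with another annotated gene, 7 of them at least 10% of their exon length.

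Counts were tested in R 4.3.3 with edgeR 4.0.16 (filterByExpr, TMM, robust quasi-likelihood test, two-sided, Benjamini-Hochberg over all genes tested) in fits over the 10 ganglia, the 6 cultures of each genotype, all 12 cultures, and the 12 untreated libraries. Of the members, 84 were tested in some fit. Standard errors are the log2 fold change over the root of F. Scripts were tested on simulated data. Alternatives used DESeq2 1.42.0 and other scalings, filters and sample sets. Members, lists and comparisons were chosen with earlier results of these data known. Named were the called members where 12 or fewer, otherwise the 10 highest and 10 lowest non-overlapping called members with a mean of at least 1 CPM, the 3 smallest p where none was called, the highest per kb of each subfamily in WT, and 39 channels of sensory neurons and glia. Other members are named where an order or a small count needed them, after their values were seen. Some members that the rule names are not reported here, although the family counts include them. The IMQ groups hold 2 libraries each, so leaving 1 out leaves a lone library that is assumed to vary like the other groups.

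Same-numbered libraries deviated together in the rPOSTN comparisons, with correlations of 0.17, 0.212 and 0.394 in WT and 0.389, 0.713 and 0.634 in KO. They also did so between vehicle ganglia of the genotypes (0.869, 0.829 and 0.161) and between IMQ and vehicle ganglia (0.754 and 0.76 in KO, 0.23 and 0.2 in WT). The main tests compared group means without pairing. Only the replicate block, an alternative, took these numbers to pair the libraries.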

Additional observations from a re-analysis of the deposited data

How the results depend on the processing

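Over 12 comparisons the count of called members stayed at 0 under every alternative run, leave-one-out included, in 8: IMQ in KO and WT ganglia, KO against WT with IMQ and with vehicle, rPOSTN in KO and WT cultures, and both differences of these effects. Culture against ganglion called 62 to 76 members in KO and 59 to 69 in WT (71 to 74 and 62 to 65 with 1 library left out). The difference of those contrasts called 0, and 1 with DESeq2 (Kcnh2, adjusted p = 0.0381). KO against WT control cultures called 0, but 2 without the low-count filter, 1 with the replicate block, 3 with DESeq2, 7 from only the 2 groups compared, 1 from the fit over the 12 culture libraries (chosen after seeing the data) and 0 to 1 with 1 library left out. The cause was not tested. Kcnj10 was called in each of these whole-group settings and Kcna6 in the leave-one-out without KO control culture 3. The replicate block changed no other call on members. The numbers did not pair the control cultures of KO and WT (correlations −0.034, −0.146 and −0.282).

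Of 1491 alternative values for single members, 1433 kept direction and call, 15 lost the call, 16 gained it and 27 changed sign. Scaled to pan-neuronal genes, signs turned, by the construction of that scale, in WT for Kcna1 (0.89), Kcna4 (0.02), Kcna6 (0.39), Kcnk3 (1.10), Kcnk10 (0.49) and Kcnma1 (0.91), and in KO for Kcna1 (0.91), Kcna6 (0.07), Kcnh2 (0.83), Kcnk2 (0.31), Kcnk3 (0.80), Kcnk10 (0.38), Kcnma1 (1.16), Kcnt2 (0.27) and Kcne3 (1.25). The uncalled Kcnk4 in KO was −0.02 with relative-log size factors, −0.01 without the filter, −0.03 with DESeq2 and −0.02 from only the 2 groups. With 1 library left out, uncalled values ranged from −0.77 to 0.20 (Kcna1, KO), −0.20 to 0.09 (Kcnk4, KO), −1.38 to 0.36 (Kcne3, KO) and −0.04 to 0.11 (Kcnk4, WT). Depth limits the sparse members, of which 8 were tested in no fit, and 2 libraries a group limit IMQ.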
